A study of Mus musculus with 12 samples.

Results

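The genes described here are direct targets of the tumor suppressor p53 and inhibitors of the cell cycle that are used as marks of senescence, the lasting arrest of stressed cells. They were chosen by name: 10 symbols were listed, and a gene was taken where a probe set on the array carried that symbol and no other. By that rule 7 of the 10 were measured among the 19938 genes of the array, namely Cdkn2a, Cdkn2b, Mdm2, Ccng1, Bbc3, Trp53inp1 and Sesn2, each through 1 probe set. The only probe set of Cdkn1a, which encodes p21, also carries a second symbol, so Cdkn1a was not used, and Bax and Gdf15 are not analysed here.

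Expression was measured with Affymetrix arrays in biopsies of colon tumors, 1 tumor in each of 6 mice, at a late and an early time of the life of the same tumor, 12 arrays in all. Late biopsies came from mice aged 280 ± 82.5 days and early biopsies from the same mice aged 94.3 ± 11.8 days (SD, n = 6 each). The tumors of mice 2201, 3407 and 3413 were read as intramucosal carcinoma at the end, and those of mice 1755, 1803 and 1805 as adenoma; the label of an early biopsy was taken from the final reading of its own tumor. Late carcinoma biopsies were taken at 200 to 267 days and late adenoma biopsies at 234 to 395 days, so that age and pathology moved together in part. All mice were F1 hybrids of SWR females and C57BL/6 males, carried the inherited Apc allele Min in one copy (Apc Min/+), and had drunk 4% dextran sodium sulfate, which injures the colon lining, in 2 cycles of 4 days around weaning. The groups share this genotype and treatment, and no tumor-free colon was used here. The values are log2 intensities, and a level can be compared between arrays but not between probe sets.

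The p53 protein is held low by the ubiquitin ligase MDM2 and accumulates when DNA is damaged or oncogenes are active. It then switches on genes that stop the cell cycle, repair DNA, limit oxidative stress or start cell death, and also Mdm2 itself. The Cdkn2a locus encodes p16INK4a, which blocks the kinases CDK4 and CDK6, and p19ARF, which blocks MDM2, while the neighbouring Cdkn2b encodes the related kinase inhibitor p15INK4b. In intestinal tumors started by loss of Apc, these inhibitors are studied as brakes between adenoma and carcinoma.

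Of the 7 genes, 4 (Cdkn2a, Cdkn2b, Trp53inp1 and Sesn2) lie on chromosome 4 of the mouse. Cdkn2a (chr4:89274473-89294619) and Cdkn2b (chr4:89306289-89311032) lie 11669 bases apart, coordinates being those of the RefSeq annotation of build GRCm38.p6. Promoter sequences from RefSeq on the same build, each the 250 bases before a transcript start, were found for 6 of the 7 genes. A set of motifs were searched in them on both strands: the half-site of p53, by its consensus, the cAMP response element TGACGTCA, the AP-1 site TGANTCA, the E2F site TTTNNCGC and the Sp1 site GGGCGG. A match describes letters only, and the shares of all 32851 promoter windows with a match were 7.13% for the p53 half-site, 1.55% for the cAMP response element, 6.75% for AP-1, 4.28% for E2F and 32.7% for Sp1.

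The p53 half-site was matched in 2 of the 9 windows of these genes, 1 in Mdm2 and 1 in Ccng1, where 7.13% of all windows had a match. The 9 windows include 3 of Bbc3, of which 2 overlap. A match to 1 half-site does not show that p53 binds there. The match began 186 bases before the start of Mdm2 and 185 bases before that of Ccng1. They are shown as 30 bases on the minus strand, with the matched 10 bases in capitals, at chr10:117710925-117710954 for Mdm2 and chr11:40755452-40755481 for Ccng1.
Mdm2: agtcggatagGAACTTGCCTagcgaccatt
Ccng1: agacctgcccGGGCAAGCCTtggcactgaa

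The promoters of Cdkn2a and Cdkn2b are shown because the 2 genes are neighbours whose levels had a low correlation in these tumors (r = 0.225), and that of Sesn2 because its level ran beside that of Cdkn2b. All are on the minus strand of chromosome 4, at chr4:89294620-89294869 (the upstream start of Cdkn2a), chr4:89282193-89282442 (its downstream start), chr4:89311033-89311282 (Cdkn2b) and chr4:132510457-132510706 (Sesn2). Capitals mark matches to E2F or Sp1 in Cdkn2a, to the cAMP response element in Cdkn2b and to Sp1 in Sesn2, and no match overlapped another. The matches to E2F began 99 and 244 bases before the upstream and the downstream start of Cdkn2a, the cAMP response element 46 bases before the start of Cdkn2b and the Sp1 site 64 bases before that of Sesn2.
Cdkn2a upstream: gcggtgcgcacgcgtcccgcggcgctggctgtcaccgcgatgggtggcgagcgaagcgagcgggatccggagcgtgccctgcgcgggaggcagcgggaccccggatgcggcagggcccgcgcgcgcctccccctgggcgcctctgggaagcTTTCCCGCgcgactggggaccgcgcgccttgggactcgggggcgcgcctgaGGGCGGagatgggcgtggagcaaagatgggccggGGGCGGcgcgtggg
Cdkn2a downstream: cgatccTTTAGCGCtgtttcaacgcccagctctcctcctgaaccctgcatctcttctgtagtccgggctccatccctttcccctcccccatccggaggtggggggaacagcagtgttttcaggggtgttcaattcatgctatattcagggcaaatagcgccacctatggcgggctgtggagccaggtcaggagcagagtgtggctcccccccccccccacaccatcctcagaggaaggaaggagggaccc
Cdkn2b: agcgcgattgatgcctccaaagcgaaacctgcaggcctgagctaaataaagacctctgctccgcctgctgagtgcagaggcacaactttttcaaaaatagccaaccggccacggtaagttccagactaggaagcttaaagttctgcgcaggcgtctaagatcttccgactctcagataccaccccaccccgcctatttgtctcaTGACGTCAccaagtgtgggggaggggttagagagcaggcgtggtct
Sesn2: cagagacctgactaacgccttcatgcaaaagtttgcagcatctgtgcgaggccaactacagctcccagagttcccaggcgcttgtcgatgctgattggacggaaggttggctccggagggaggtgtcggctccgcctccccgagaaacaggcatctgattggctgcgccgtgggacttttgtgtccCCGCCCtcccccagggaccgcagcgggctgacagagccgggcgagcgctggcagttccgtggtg

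The tissue was checked by epithelial markers. Epcam lay between 12.68 and 13.03 and Cdh1 between 12.81 and 13.37 on all 12 arrays, while Krt20, a keratin of differentiated surface cells, ranged from 7.03 to 13.00. Cdx2 ranged from 7.75 to 11.57, Cdx1 from 8.83 to 10.30 and Vil1 from 11.44 to 12.62. The other listed markers, Krt8, Krt18 and Cldn7, had narrower ranges than these. Medians of the arrays lay between 7.62 and 7.80, and the median correlation of an array with the others was 0.973 or more. The lowest, 0.973, was that of the late array of mouse 1805, which also held the highest levels of Cdkn2b and Sesn2. Markers of other cells differed between the late and the early biopsies. The mean level of 7 endothelial markers was 9.97 to 10.47 on late arrays, against 8.54 to 10.37 on early arrays. That of 6 neutrophil markers was 8.43 to 10.45 on late arrays, against 7.08 to 9.19 on early arrays. The lowest endothelial levels, 8.54 to 9.09, were on the early arrays of mice 1755, 1803, 1805 and 2201. Those arrays alone carry submitters' sample numbers under 300. In mice 3407 and 3413, with both arrays over 300, the endothelial mean changed by 0.15 and -0.15 and the neutrophil mean by 0.21 and 1.30. Lymphocyte markers set mouse 1805 apart. Its mean of 3 B cell markers was 10.98 on the early and 7.50 on the late array, a change of -3.47. In the other mice that mean changed by 0.14 to 1.20. The mean of 4 T cell markers changed by -1.01 in mouse 1805 and by 0.24 to 1.25 in the others. That of 5 mast cell markers changed by -3.16 in mouse 1755 to 0.33 in mouse 2201. In such bulk samples fewer cells of a type and less RNA per cell cannot be told apart. The part of these cells in the results below was not tested.

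The question between late and early biopsies is whether the p53 and INK4 genes change as a tumor ages. No member differed at the 5% threshold after adjustment, and none moved one way in all 6 mice. Fits were made with limma, with the mouse as a block so that each late biopsy was set against the early biopsy of its own tumor, and p-values were adjusted over all 19938 genes by Benjamini-Hochberg. Of the 7 members 0 passed an adjusted p of 0.05, against 0% of all genes, and 0 passed an unadjusted p of 0.05, against 14.7% of all genes. A change in one direction in 6 of 6 mice was seen for 0 of the 7, against 7.77% of all genes, and 0 had late and early arrays that did not overlap, against 0.401%. The median difference of the members was 0.07, with 6 above 0 and 1 below, and the median of all genes was -0.02.

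**Figure D1:**
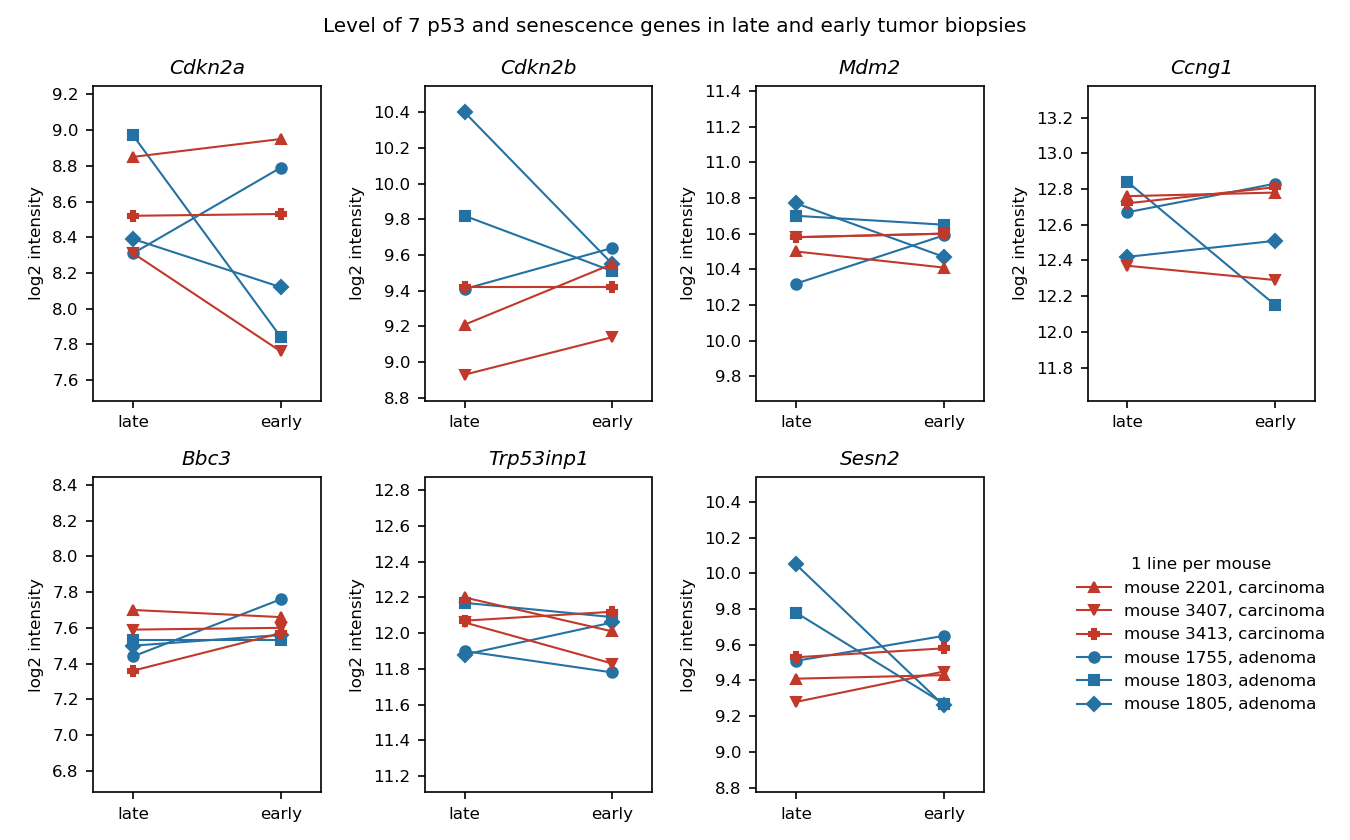
Level of each of the 7 genes (log2 intensity, vertical axis, each panel spanning the same range) in the late biopsy, left, and the early biopsy, right, with 1 line per mouse, red for carcinoma and blue for adenoma. The lines of Cdkn2a and Cdkn2b run in both directions, and the 2 highest points of Cdkn2b and of Sesn2 are the late biopsies of mice 1805 and 1803.

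Cdkn2a was the member with the widest spread of changes between mice. Its level in the late biopsies was 8.85, 8.31 and 8.52 in the carcinoma mice 2201, 3407 and 3413 and 8.31, 8.97 and 8.39 in the adenoma mice 1755, 1803 and 1805. In the early biopsies it was 8.95, 7.76 and 8.53 in the same carcinoma mice and 8.79, 7.84 and 8.12 in the same adenoma mice. The ranges overlapped: late arrays spanned 8.31 to 8.97, inside the 7.76 to 8.95 of the early ones except for mouse 1803. Late minus early, the tumor of mouse 1803 was up by 1.12 and that of mouse 3407 by 0.55, whereas mouse 1755 stood at -0.48. The fitted difference was 0.23 (SE 0.191, 95% interval -0.22 to 0.67, limma adjusted p = 0.619), with 3 of 6 tumors higher. It was 0.046 without mouse 1803 and 0.37 without mouse 1755. The SD of the 6 changes was 0.561, wider than for 92.4% of all genes, where the median gene had 0.183. Which transcript of the locus, that of p16INK4a or that of p19ARF, the probe set reads is not given by its annotation.

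Cdkn2b, next to it on the chromosome, was highest in the late biopsies of 2 adenoma mice. Late biopsies had 9.21, 8.93 and 9.42 in the carcinoma mice 2201, 3407 and 3413 and 9.41, 9.82 and 10.40 in the adenoma mice 1755, 1803 and 1805. Early biopsies had 9.55, 9.14 and 9.42 in those carcinoma mice and 9.64, 9.51 and 9.55 in those adenoma mice. Early levels therefore lay close together, within 9.14 to 9.64, and late levels spread over 8.93 to 10.40. The difference late minus early was 0.06 (SE 0.154, 95% interval -0.30 to 0.42, limma adjusted p = 0.891), with 3 of 6 tumors higher. Without mouse 1805, whose own change was 0.85, it was -0.10.

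Mdm2, the ligase that degrades p53 and is itself a target of p53, was among the steadier members. Late arrays read 10.50, 10.58 and 10.58 in mice 2201, 3407 and 3413 and 10.32, 10.70 and 10.77 in mice 1755, 1803 and 1805, and the 6 early arrays lay between 10.41 and 10.65 with a median of 10.60. Its difference of 0.02 (SE 0.0740, 95% interval -0.15 to 0.19, limma adjusted p = 0.927) had 3 of 6 tumors higher, and it was -0.04 without mouse 1805. The changes of Mdm2 ran from -0.26 in mouse 1755 to 0.30 in mouse 1805, a spread (SD 0.184) near that of the median gene.

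Ccng1, which encodes cyclin G1, a feedback regulator of p53 that acts with a phosphatase on MDM2, had nearly the same level on both arrays of 5 mice. In late biopsies it read 12.76, 12.37 and 12.72 in mice 2201, 3407 and 3413 and 12.67, 12.84 and 12.42 in mice 1755, 1803 and 1805. In early biopsies it read 12.78, 12.29 and 12.81 in the carcinoma mice and 12.83, 12.15 and 12.51 in the adenoma mice, in the same order. Mouse 1803 stood apart with a change of 0.70, while the other 5 changes lay between -0.17 and 0.08. Late minus early, the fit gave 0.07 (SE 0.114, 95% interval -0.20 to 0.33, limma adjusted p = 0.828), and -0.06 without mouse 1803, with 2 of 6 tumors higher.

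The 2 members with roles in cell death were narrow in range. Bbc3 encodes PUMA, a BH3-only protein that starts apoptosis, and read 7.70, 7.59 and 7.36 in the late biopsies of mice 2201, 3407 and 3413 and 7.44, 7.53 and 7.50 in those of mice 1755, 1803 and 1805. Its early levels were 7.66, 7.60 and 7.57 in the carcinoma mice and 7.76, 7.53 and 7.56 in the adenoma mice. Signal over background could not be read from the deposited values, and Bbc3 lay at 7.36 to 7.76, near the array medians of 7.62 to 7.80. It was the 1 member with a mean below 0 for late minus early, at -0.09 (SE 0.0630, 95% interval -0.24 to 0.05, limma adjusted p = 0.525), lower in 4 of 6 tumors. Trp53inp1, a nuclear protein that aids the pro-death activity of p53 and takes part in autophagy, read 12.20, 12.06 and 12.07 in the late biopsies of mice 2201, 3407 and 3413 and 11.90, 12.17 and 11.88 in those of mice 1755, 1803 and 1805. Its early levels spanned 11.78 to 12.12 with a median of 12.03. The difference was 0.07 (SE 0.0662, 95% interval -0.09 to 0.22, limma adjusted p = 0.687), with 4 of 6 tumors higher.

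Sesn2 encodes sestrin 2, a stress protein that restrains mTORC1 and is induced by p53 and by the integrated stress response. Its late levels were 9.41, 9.28 and 9.53 in mice 2201, 3407 and 3413 and 9.51, 9.78 and 10.05 in mice 1755, 1803 and 1805. Its early levels were 9.43, 9.45 and 9.58 in the carcinoma mice and 9.65, 9.27 and 9.26 in the adenoma mice. Late and early arrays overlapped, and the changes of 0.51 in mouse 1803 and 0.79 in mouse 1805 stood above the other 4, which lay between -0.17 and -0.02. The difference was 0.15 (SE 0.139, 95% interval -0.17 to 0.48, limma adjusted p = 0.644), with 2 of 6 tumors higher. It was 0.026 without mouse 1805 and 0.080 without mouse 1803.

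Array numbers also divide late from early. The submitters' sample numbers are under 300 for the early arrays of mice 1755, 1803, 1805 and 2201 and over 300 for the other 8, so time and number cannot be fully told apart. In the 2 mice with both arrays over 300, 3407 and 3413, the mean change was 0.27 for Cdkn2a, -0.10 for Cdkn2b, -0.03 for Mdm2, -0.01 for Ccng1, -0.11 for Bbc3, 0.09 for Trp53inp1 and -0.11 for Sesn2. With the number group as a term, the fit rests on these 2 mice alone and must return the same values, so it is no second result. Against the main fit Cdkn2b, Mdm2, Ccng1 and Sesn2 changed sign and Cdkn2a, Bbc3 and Trp53inp1 did not.

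**Figure D2:**
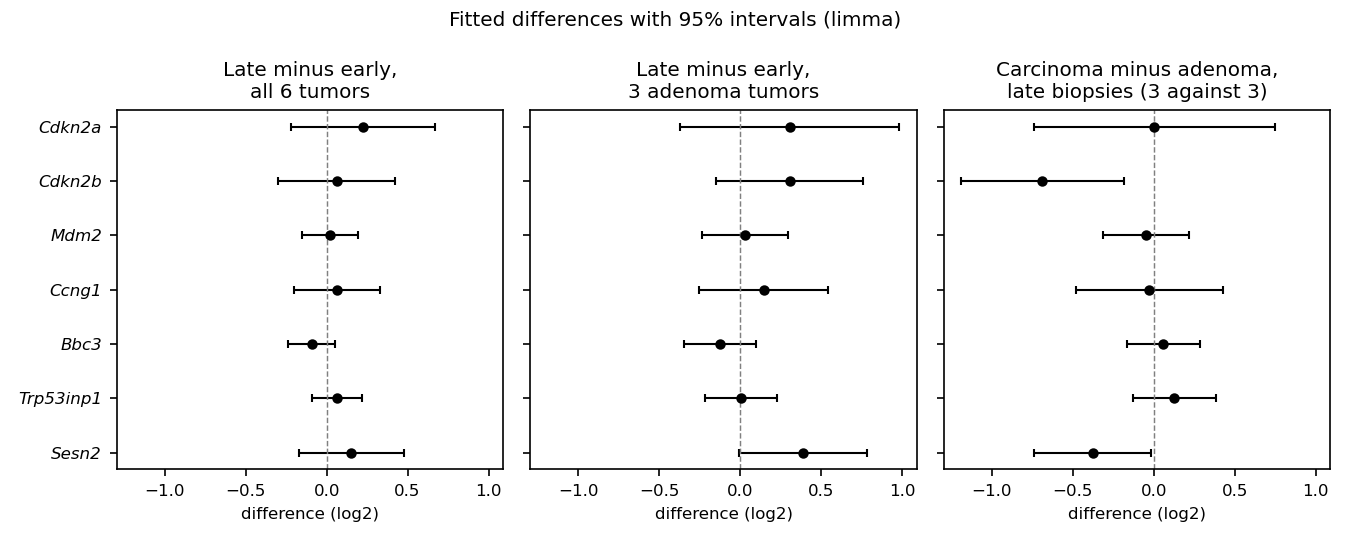
Fitted differences (log2, horizontal axis) with 95% intervals for the 7 genes, for late minus early in all tumors, late minus early in adenoma tumors, and carcinoma minus adenoma in late biopsies. The intervals cross 0 everywhere except for Cdkn2b (-1.19 to -0.19) and Sesn2 (-0.74 to -0.01) in the right panel.

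Split by final pathology, the change within tumors was larger in adenoma than in carcinoma for Cdkn2b and Sesn2, but neither the changes nor their difference passed the adjusted threshold. In carcinoma tumors 0 of 7 members passed an adjusted p of 0.05 (0% of all genes) and 0 an unadjusted one (4.3%). Those with the smallest p were Trp53inp1 at 0.13 (SE 0.0942, limma adjusted p = 0.952), Cdkn2b at -0.18 (SE 0.190, limma adjusted p = 0.952), Bbc3 at -0.06 and Cdkn2a at 0.15. Sesn2 was lower in the late biopsy in 3 of 3 carcinoma tumors, with changes of -0.02, -0.17 and -0.05, and 16.9% of all genes were lower in all 3. In adenoma tumors 0 of 7 passed an adjusted p of 0.05 (0.125% of all genes, which is 25 genes) and 0 an unadjusted one (18%), and 0 of 7 moved one way in 3 of 3 tumors (39.4%). There Sesn2 had a change of 0.39 (SE 0.165, 95% interval -0.01 to 0.78, limma adjusted p = 0.285) and Cdkn2b one of 0.31 (SE 0.190, limma adjusted p = 0.459), each higher in 2 of 3 tumors. Bbc3 followed at -0.12 (limma adjusted p = 0.543) and Cdkn2a at 0.30 (limma adjusted p = 0.634). The adenoma changes of Sesn2 and Cdkn2b were 0.65 and 0.57 without mouse 1755, and 0.19 and 0.03 without mouse 1805.

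The test of the carcinoma change minus the adenoma change gave 0 of 7 members at an adjusted p of 0.05 (0% of all genes) and 0 at an unadjusted one (7.04%). It was -0.47 for Sesn2 (SE 0.234, 95% interval -1.03 to 0.09, limma adjusted p = 0.739) and -0.49 for Cdkn2b (SE 0.268, 95% interval -1.13 to 0.15, limma adjusted p = 0.747). Without mouse 1755 the values were -0.73 for Sesn2 and -0.76 for Cdkn2b, and without mouse 1805 they were -0.27 and -0.22. With the number group as a term they were -0.41 and -0.65, and array number differs between the pathologies in this test too. For Trp53inp1 the difference of changes was 0.12 and for Ccng1 -0.16. Mean changes in neutrophil markers stood beside these values: their list level changed by -0.76, 0.21 and 1.30 in the carcinoma mice 2201, 3407 and 3413 and by 1.25, 2.05 and 2.69 in the adenoma mice 1755, 1803 and 1805, and their part in the result was not tested.

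In the late biopsies, carcinoma against adenoma, 4 of 7 members were lower, and only Cdkn2b and Sesn2 by an amount that passed an unadjusted p of 0.05. The late carcinoma biopsies averaged 9.19 ± 0.247 for Cdkn2b and the late adenoma biopsies 9.87 ± 0.499, a difference of -0.69 (SE 0.226, 95% interval -1.19 to -0.19, SD over n = 3 each). The limma p was 0.0119 unadjusted and 0.401 adjusted over all genes, so the call does not hold after adjustment. Sesn2 averaged 9.40 ± 0.124 in late carcinoma and 9.78 ± 0.269 in late adenoma (SD, n = 3 each). The difference was -0.38 (SE 0.163, 95% interval -0.74 to -0.01, limma adjusted p = 0.421, unadjusted 0.0427). Both groups overlapped for both genes, through the adenoma mouse 1755, which lay just below the carcinoma mouse 3413. Of the 7 members, 2 passed an unadjusted p of 0.05, against 11.7% of all genes, and 0 passed an adjusted one, against 0%. No member had late carcinoma and late adenoma arrays that did not overlap, against 14.9% of all genes. Trp53inp1 differed by 0.13 and Bbc3 by 0.06, and the other 3 lay between -0.05 and 0.00. All 6 late arrays carry sample numbers over 300. With 1 mouse left out at a time, the difference of Cdkn2b ran from -0.92 to -0.42 and that of Sesn2 from -0.51 to -0.24. The count at an unadjusted p of 0.05 was 0 without mouse 3407, and 1, Cdkn2b alone, without mouse 1803, 1805, 2201 or 3413, with dim genes filtered out or with the array number group as a term.

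Some epithelial markers and age moved with that difference. Epcam did not separate the groups, at 12.84, 12.79 and 12.86 in late carcinoma and 12.83, 12.77 and 12.99 in late adenoma biopsies. The median difference of the 9 epithelial markers was -0.22, and 9 of 9 were lower. Their mean level was 11.19 to 11.61 in late carcinoma and 11.59 to 12.47 in late adenoma biopsies, and the Krt20 difference was -2.95 (SE 0.833, limma adjusted p = 0.401), with 7.03 to 10.02 on the carcinoma arrays and 9.91 to 13.00 on the adenoma arrays. The 6 neutrophil markers averaged 8.43 to 9.28 in late carcinoma and 9.14 to 10.45 in late adenoma biopsies. The 2 oldest mice were 1803, at 369 days, and 1805, at 395 days, both with adenoma, and they held the 2 highest levels of Cdkn2b and of Sesn2. Over the 6 late biopsies the correlation of level with age was Pearson r = 0.861 and Spearman rho = 0.6 for Cdkn2b, and r = 0.879 and rho = 0.6 for Sesn2. Mdm2 had r = 0.708 and rho = 0.543, and r of the remaining members lay between -0.10 and 0.37. The correlation was computed for all 7 members after the values had been seen and is given as a description. An exact permutation test gave an adjusted p of 0.107 for Cdkn2b and for Sesn2, and it decides nothing for a relation already seen. Without mice 1803 and 1805 r was -0.055 for Cdkn2b, -0.129 for Sesn2 and -0.404 for Mdm2, so the relation rests on those 2 mice. Age and pathology cannot be told apart there, and the part of these markers in the difference was not tested.

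**Figure D3:**
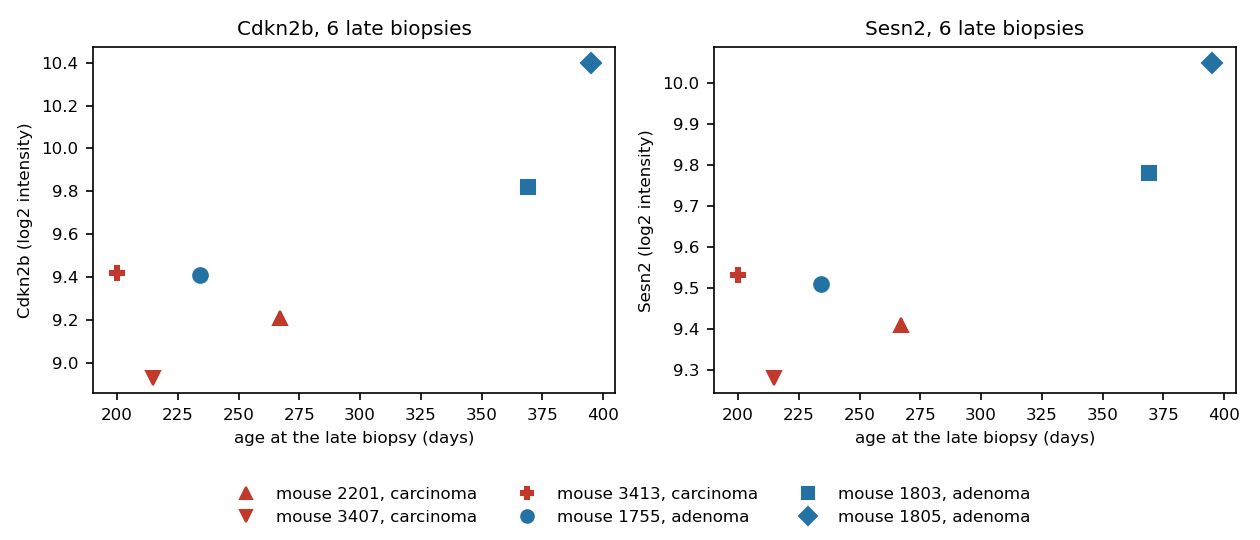
Level of Cdkn2b, left, and Sesn2, right (log2 intensity), against age at the late biopsy in days, 1 point per mouse, red for carcinoma and blue for adenoma. The 2 adenoma mice aged 369 and 395 days lie at the top of both panels and the other 4 mice, aged 200 to 267 days, lie below.

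In the early biopsies, which were sorted by what the tumor later became, no member stood out. Of the 7, 0 passed an adjusted p of 0.05 (0% of all genes) or an unadjusted one (12%), and 0 had groups that did not overlap (18.1%). The differences between tumors that ended as carcinoma and those that ended as adenoma were -0.20 for Cdkn2b (SE 0.226, limma adjusted p = 0.761), 0.13 for Ccng1 (SE 0.205, adjusted p = 0.834), 0.09 for Sesn2 (SE 0.163, adjusted p = 0.851) and 0.16 for Cdkn2a (SE 0.336, adjusted p = 0.877). All 3 early adenoma arrays have sample numbers under 300, against 1 of 3 early carcinoma arrays. With the number group as a term the early differences were 0.60 for Cdkn2a, 0.23 for Ccng1, -0.03 for Cdkn2b and 0.04 for Sesn2.

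Across the 12 arrays 2 pairs of members ran close together. These correlations are descriptions, since the arrays are 6 pairs from the same tumors and share cell content. Cdkn2a ran with Ccng1 at r = 0.880 and Cdkn2b with Sesn2 at r = 0.797, the 2 highest of the 21 pairs of members, while Cdkn2a and its neighbour Cdkn2b had r = 0.225. The lowest was -0.296 between Trp53inp1 and Sesn2. Mdm2, although a target of p53 like Ccng1, had r = -0.287 with it, and 0.543 with Sesn2 and 0.470 with Cdkn2b. The highest r of Bbc3 with any member was 0.313, and that of Trp53inp1 was 0.285.

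**Figure D4:**
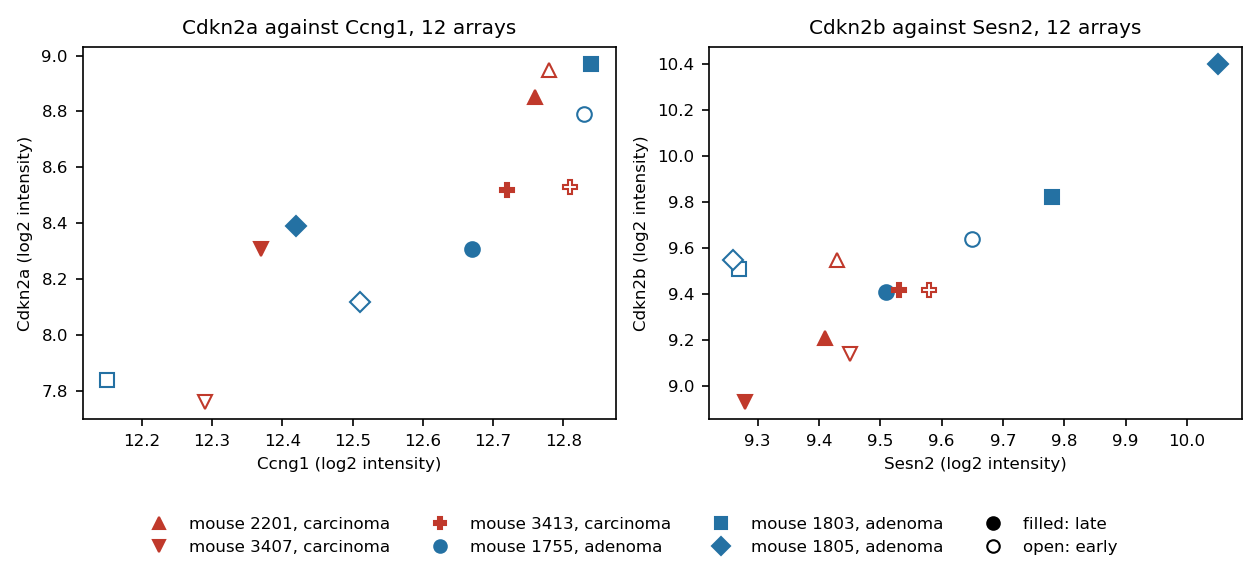
Cdkn2a against Ccng1, left, and Cdkn2b against Sesn2, right, on the 12 arrays (log2 intensity on both axes), filled for late and open for early biopsies. In the left panel the early biopsies of mice 1803 and 3407 lie lowest on both axes, and in the right panel the late biopsies of mice 1805 and 1803 lie highest on both.

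The genes most alike to Cdkn2a by Pearson r over the 12 arrays, among genes above the 25th percentile of mean level, were Ccng1 (0.880), Dglucy (0.850), Dcun1d4 (0.843) and Dipk1a (0.836). For Ccng1 they were Dglucy (0.953), Cdkn2a (0.880), Ephx1 (0.876) and Psrc1 (0.842). Ephx1, an epoxide hydrolase, is one of the 30 further p53 targets listed for comparison, and its array values followed those of Ccng1: late levels were 10.63, 9.49 and 10.13 in mice 2201, 3407 and 3413 and 10.13, 10.46 and 8.80 in mice 1755, 1803 and 1805, and early levels were 10.48, 8.95 and 10.39 in the carcinoma mice and 10.81, 9.43 and 9.87 in the adenoma mice. Of those 30 targets 19 had a positive r with Ccng1 and 8 had r over 0.5, led by Ephx1, Zmat3 (0.800), an RNA-binding protein, and Phlda3 (0.687), an inhibitor of AKT. Among all genes 46.6% had a positive r with Ccng1 and 3.37% had r over 0.5. With Cdkn2a 24 of the 30 had a positive r and 8 had r over 0.5, led by Zmat3 (0.832), Polk (0.797) and Ephx1 (0.776), against 52.4% and 2.61% of all genes.

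The genes most alike to Cdkn2b were Pgm1 (0.969), a phosphoglucomutase, Abhd2 (0.960), Vps4b (0.926) and Smap1 (0.920). All 17 measured cell cycle genes that p21 is known to lower had a negative r with Cdkn2b, with a median of -0.80 and the lowest, -0.85, for Cdk1, where the median of all genes was -0.09. All 9 epithelial markers had a positive r with Cdkn2b, with a median of 0.57, where 42.4% of all genes had a positive r. Of the 9, 6 had r over 0.5, against 11.5% of all genes. With Sesn2 8 of the 9 had a positive r, against 40.0% of all genes, with a median of 0.40. Sesn2 showed the same signs as Cdkn2b for the cell cycle genes, with 17 of 17 negative and a median of -0.50, where the median of all genes was -0.10. Its most alike genes were Ctla2b (0.926), Ldha (0.908), a lactate dehydrogenase, Npr3 (0.900) and Tnfrsf23 (0.884). Both Cdkn2b and Sesn2 ran with the p53 target Gadd45a, a growth arrest gene induced by DNA damage, at 0.854 and 0.795. They ran against Ppm1d, a phosphatase that p53 induces, at -0.66 and -0.60. Of the 30 further p53 targets 18 had a positive r with Cdkn2b and 19 with Sesn2, and 6 and 5 had r over 0.5, where 11.5% and 6.84% of all genes did. Ccng1 showed no such sign with the cell cycle list, where the median r was 0.11.

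The rest of the pathway was described through lists, of which no gene passed an adjusted p of 0.05 in any of the 6 comparisons. The genes named from them are those with the smallest p, and where one is said to move one way in 6 of 6 tumors, so did 7.77% of all genes. In late against early biopsies the 30 further p53 targets were split, with 16 higher and 14 lower, a median of 0.03 and 5 at an unadjusted p of 0.05, a share near the 14.7% of all genes. Those with the smallest p were Sulf2, a heparan sulfatase, at 0.68 (SE 0.195, limma adjusted p = 0.254), Xpc, a nucleotide excision repair sensor, at -0.15 with 6 of 6 tumors lower, and Ei24 at 0.15. Of 14 p53 regulators Hipk2, a kinase that phosphorylates p53, had 0.22 and Mdm4, which binds and inhibits p53, 0.18 with 6 of 6 tumors higher (limma adjusted p = 0.274). Another list held 18 genes of cyclins, cyclin-dependent kinases, their inhibitors, the RB family and E2F factors, so drivers and brakes of the cell cycle together. Of these 13 were lower. The inhibitor Cdkn1c (-0.46) and the cyclins Ccne1 (-0.54) and Ccne2 (-0.60) were lower in 6 of 6 tumors, with limma adjusted p from 0.206 to 0.236. Tbx3, a repressor of the Arf and p21 genes, was lower in 6 of 6 tumors, at -0.60 (SE 0.105, limma adjusted p = 0.206). It is 1 of 15 regulators of the INK4 and Arf locus, a list of repressors and activators together, of which 11 were lower. Of the 15, 3 passed an unadjusted limma p of 0.05, where 14.7% of all genes did.

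**Figure D5:**
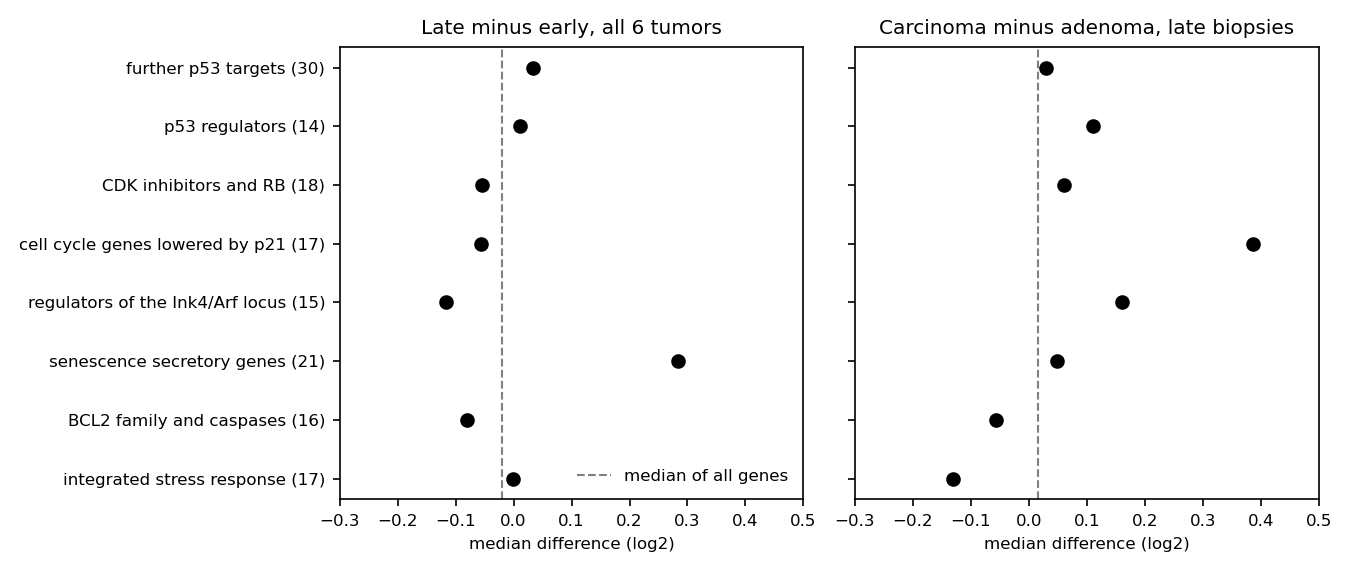
Median difference (log2, horizontal axis) of 8 pathway lists, with the number of measured genes in brackets, for late minus early in all tumors, left, and carcinoma minus adenoma in late biopsies, right, beside the median of all genes (dashed line). The senescence secretory genes lie farthest from the line on the left, at 0.28, and the cell cycle genes on the right, at 0.39.

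Secreted factors of senescent cells lay mostly higher in late biopsies. Of 21 measured factors 18 were higher and 3 lower, with a median of 0.28 where that of all genes was -0.02, and 3 passed an unadjusted p of 0.05, a share near the 14.7% of all genes. These were the insulin-like growth factor binding proteins Igfbp7 (0.87, SE 0.245), Igfbp5 (1.35, SE 0.401) and Igfbp3 (0.61, SE 0.193), each higher in 5 of 6 tumors, with limma adjusted p from 0.251 to 0.270. The median change was 0.01 in carcinoma tumors and 0.75 in adenoma tumors. In the early biopsies 20 of the 21 were higher in tumors that ended as carcinoma than in those that ended as adenoma, with a median of 0.66 and 4 at an unadjusted p of 0.05, where 12% of all genes were. Fibroblast and endothelial cells also express such factors, and 8 of 8 fibroblast and 7 of 7 endothelial markers were higher in late biopsies, with medians of 0.73 and 0.95. In mice 3407 and 3413, with both arrays numbered over 300, the fibroblast mean changed by 0.45 and -0.67. There the endothelial mean changed by 0.15 and -0.15 and that of the secreted factors by 0.79 and -0.26. In late biopsies 6 of 6 neutrophil markers were higher too, with a median change of 0.193 in carcinoma and 1.996 in adenoma tumors. The part of these cells in the list's difference was not tested.

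In late biopsies, carcinoma against adenoma, the cell cycle genes lowered by p21 were higher, 17 of 17, with a median of 0.39 where all genes had 0.02, and 10 of them passed an unadjusted p of 0.05, where 11.7% of all genes did. Top2a, a topoisomerase of dividing cells, read 11.46, 11.62 and 11.66 in late carcinoma and 11.34, 11.10 and 10.44 in late adenoma biopsies, a difference of 0.62 (SE 0.189, limma adjusted p = 0.401) with groups that did not overlap, as for 14.9% of all genes. Bub1b, of the spindle checkpoint, differed by 0.59 and the mitotic kinase Plk1 by 0.52. The early biopsies of the same tumors showed a median of 0.39 too, again 17 of 17 higher. The 15 regulators of the INK4 and Arf locus, repressors and activators together, were all higher in late carcinoma. Their median was 0.16 where all genes had 0.02, and 4 passed an unadjusted limma p of 0.05, where 11.7% of all genes did. Among them were Dmtf1, an activator of Arf, at 0.25 (SE 0.0837, limma adjusted p = 0.401), Kdm2b at 0.36 and the Polycomb protein Cbx8 at 0.25. Cdkn2a itself differed by 0.00 (SE 0.336, 95% interval -0.74 to 0.75) between these groups. Of the further p53 targets Perp, a membrane protein of desmosomes and apoptosis, was lower in late carcinoma, at -0.44 (SE 0.141, limma adjusted p = 0.401), and of p53 regulators Mdm4 was higher by 0.27 and the damage kinase Atm by 0.49.

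Cell death and stress genes varied in both directions. Bmf, a BH3-only protein like PUMA, was lower in the late biopsy in 6 of 6 tumors, at -0.34 (SE 0.0890, limma adjusted p = 0.243), and higher in late carcinoma than in late adenoma by 0.61. Bcl2, which blocks apoptosis, was higher in late carcinoma by 0.88 (SE 0.292, limma adjusted p = 0.401) and Bid by 0.45. Of the 16 measured BCL2 family and caspase genes, however, 6 were higher and 10 lower in late carcinoma. Their median was -0.06 where that of all genes was 0.02. There 3 higher and 1 lower passed an unadjusted limma p of 0.05, as did 11.7% of all genes. In late against early biopsies 12 of the 16 were lower, with a median of -0.08. Of the integrated stress response, which also controls Sesn2, 9 of 17 genes were lower in late than in early biopsies, with the serine synthesis enzymes Phgdh (-0.24) and Psat1 (-0.42) lower in 6 of 6 tumors and the transcription factor Atf3 (-0.56) in 5 of 6. In late carcinoma against late adenoma 12 of those 17 were lower, with Cth, of cysteine synthesis, at -0.69 (SE 0.238, limma adjusted p = 0.401).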

How the data were processed

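Per the labels' protocols, RNA from colon tumor biopsies was labelled for Affymetrix arrays from 300 ng with a kit from Ambion. The values deposited by the authors were read as log2 intensities from their range, since no unit is stated, and their summarisation and normalisation are not given in the sources used here. No further normalisation was applied. Of 35557 probe sets 21789 carried 1 gene symbol, 1621 several and 12147 none in the platform annotation. Where a gene had several probe sets, that with the highest mean was kept, which left 19938 genes, and 21698 of the 21789 matched RefSeq.

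Differences were fitted with limma 3.58.1 in R 4.3.3. Late against early used the mouse as a fixed block, and pathology used 4 groups with the mouse as a random block (consensus correlation 0.286). Pairing comes from the labels, which name the mouse of each biopsy, and the 2 arrays of a mouse deviated together from the mean of their time point at r = 0.110 to 0.527. For arrays of different mice r was -0.454 to 0.337, so the ranges overlapped. P-values were adjusted by Benjamini-Hochberg over all genes, with a threshold of 0.05. Correlations used Python 3.11.15. The number of arrays limits the precision, and each mouse gave 1 tumor. Alternatives tried were other normalizations, a filter on dim genes, the mean of probe sets, an intensity trend, the array number group, age in place of time, no replicate block and leaving out each mouse. The members and lists were chosen with earlier results of these data known. Named genes are all members, and of each list up to 3 with the smallest unadjusted p in late against early and in late carcinoma against late adenoma. For Cdkn2a the 4 genes with the highest Pearson r are also named, while those for Ccng1, Cdkn2b and Sesn2, the list members named by correlation, and the age relation were chosen after values were seen.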

Additional observations from a re-analysis of the deposited data

Results flagged for a closer look

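The change of Ccng1 in mouse 1803 was 0.70, late minus early, while the other 5 mice lay between -0.17 and 0.08. Its gap to the nearest of the others took up 0.714 of the whole range, above Dixon's limit for 6 samples, and it was the 1 such case among 21 groups tested. Chance gives about 1 in 20 such cases. The early biopsy of this mouse, at 12.15, held the lowest level of Ccng1 on any of the 12 arrays, and its Cdkn2a level of 7.84 was the second lowest on them.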

How the results depend on the processing

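No member passed the adjusted threshold under any alternative. Of 358 values of members under alternatives 343 kept the direction and side of the threshold, and 15 changed sign. Many of the 343 could not change sign. The dim filter, the mean of probe sets, the intensity trend and dropping the block leave a member's difference as it was. Leaving out a mouse of the other pathology likewise leaves the change within a pathology as it was. The count is therefore no measure of robustness. With the array number group as a term, late minus early was -0.10 for Cdkn2b, -0.025 for Mdm2, -0.0066 for Ccng1 and -0.11 for Sesn2, and the adenoma change had 0 genes called. With 1 mouse left out, late minus early ranged from -0.10 to 0.14 for Cdkn2b, from -0.036 to 0.077 for Mdm2 and from -0.060 to 0.11 for Ccng1. The Cdkn2a change ranged from -0.10 to 0.70 in adenoma and from -0.056 to 0.27 in carcinoma, and the Bbc3 change in carcinoma from -0.11 to 0.013. The carcinoma minus adenoma change of Ccng1 ranged from -0.31 to 0.12, the late carcinoma against adenoma difference of Bbc3 from -0.016 to 0.16, and the early one from -0.046 to 0.30 for Ccng1 and from -0.11 to 0.49 for Cdkn2a. Counts of genes called moved more. In late against early they were 33 with age in place of time, and 0 to 2 with 1 mouse left out. In adenoma tumors, where 25 were called, they were 57 with arrays shifted to 1 median, 13 with the dim filter, 2 with no replicate block, so that the pairing matters there, and 0 to 78 with 1 mouse left out. They were 0 to 1 in carcinoma tumors, 0 to 395 in late and 0 to 67 in early carcinoma against adenoma with 1 mouse left out, 395 and 67 both without mouse 1803. Without the block the fitted differences of the members were the same. The cause of these shifts was not tested. Signal over background could not be read from the deposited values, and with 3 tumors of each pathology small differences were not detectable.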
